A study of Mus musculus with 4 samples.

Results

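The genes of the interferon system described here are the receptors for interferons, the STAT and IRF transcription factors that act behind them, and the antiviral and cell-autonomous immunity genes that these factors induce, among them the guanylate-binding proteins (GBPs). They were taken from the deposited gene table by symbol: every gene named as an Ifit, Ifi, Ifngr, Ifnar, Oas, Gbp, Irf, Irgm, Mx or Stat member, together with Ifih1, Isg15, Isg20, Usp18, Rsad2, Bst2, Rtp4, Igtp, Iigp1 and Ddx58. This gave 71 of the 15424 genes listed. The symbol rule also took up 5 Ifitm genes, and it did not use any measured value.

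The tumors grew under the skin of nude mice, an athymic host with almost no mature T cells but with macrophages, neutrophils and NK cells of its own. The transplanted cells in both groups were R728T1, 1 mouse line that the labels trace to an Rb/P53 model, call "non-SMCs" without spelling the term out, and assign to small cell lung cancer. They carried either knockdown of Taz (shTaz) or an shRNA against luciferase (shLuc), with 2 samples listed for each group; neither the number of animals nor their age is given. RNA came from whole frozen tumors, and because graft and host are both mouse, no value separates tumor cells from host cells.

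The deposited table holds FPKM values (a read level that is divided by transcript length and by library total, which lets genes be compared with one another) in 1 column per group, so that no difference below has a replicate check and no test was run. Sequencing depth is unknown. The columns summed to 427921 FPKM for shTaz and 501728 FPKM for shLuc over all genes. Wwtr1, which encodes TAZ, was at 15.1 FPKM in the shTaz column, 64.5% of its 23.4 FPKM in the shLuc column, and the Taz of the table, an older symbol of Tafazzin, was at 9.50 FPKM in shTaz and 13.7 FPKM in shLuc. The labels do not state which of these genes the hairpin targets, so neither value is a settled measure of the knockdown. Of the neuroendocrine markers, Neurod1, Chga and Calca are not among the listed genes, Syp was under 1 FPKM in both columns, Uchl1 was at 1.51 FPKM in shTaz and 10.1 FPKM in shLuc, and Ncam1 was at 43.8 FPKM in shTaz and 39.8 FPKM in shLuc. The labelled cell type therefore rests on the labels here.

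Interferons are secreted proteins that cells release on sensing foreign nucleic acid or, for interferon gamma, that activated lymphocytes release. Type I interferons bind the Ifnar receptor and type II interferon binds the Ifngr receptor. Both receptors signal through JAK kinases to STAT proteins: STAT proteins together with IRF9 bind a DNA element named ISRE, and STAT dimers bind an element named GAS. In tumors the induced genes can be expressed by the cancer cells, by macrophages and by stromal cells, and some of them are expressed without interferon.

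The deposited levels gave no common direction for the interferon system. Genes of the HIN-200 family, sensors and regulators that bind DNA, were all higher in the shTaz column, the IFIT family and the Ifi27-like genes were all lower, and the remaining groups held members in both directions or lay close to the bulk of all genes. Of the 71 members, 56 averaged 1 FPKM or more over the 2 columns and are counted below. Differences are log2 ratios, shTaz over shLuc, taken after 1 FPKM was added to both values; the addition makes the gap of genes near 1 FPKM look smaller. A difference of 1 on this scale is called 2-fold. By this measure 5 of the 56 members (8.93%) were 2-fold higher in shTaz, against 3.96% of all 11650 genes at this level, and 1 member (1.79%) was 2-fold lower, against 3.25% of all genes. The members' share of higher genes is above the background and the share of lower genes below it, but the shares rest on 5 genes and 1 gene. The median difference was 0.19 over the members and 0.12 over all genes. Of the members 36 lay above 0 and 20 below it, and of all 11650 genes 6792 lay above 0 and 4858 below it.

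The balance over the whole table, with 461 genes 2-fold higher and 379 genes 2-fold lower, depended on how the columns were scaled. There were 310 higher and 493 lower genes with median-ratio scaling, which brings the all-gene median to 0.00, and 294 higher and 455 lower with quantile normalization. Among the members the counts were 3 higher and 1 lower with median-ratio scaling, and 2 higher and 1 lower with quantile normalization. Every difference below is of the values as deposited unless another scaling is named.

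The genes past 2-fold were the HIN-200 members Ifi202b, Ifi205 and Ifi204, the ISG15 protease gene Usp18 and the GTPase gene Gbp2 on the higher side, and the mitochondrial protein gene Ifi27l2a on the lower side. Ifi202b was at 96.4 FPKM in shTaz and 41.9 FPKM in shLuc, and Ifi27l2a at 60.6 FPKM in shTaz and 155 FPKM in shLuc. Gbp2, with a difference of 1.03, stood just inside the 2-fold limit. Ifitm1 at 0.93 and Gbp7 at 0.88 stood just outside it.

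**Figure D1:**
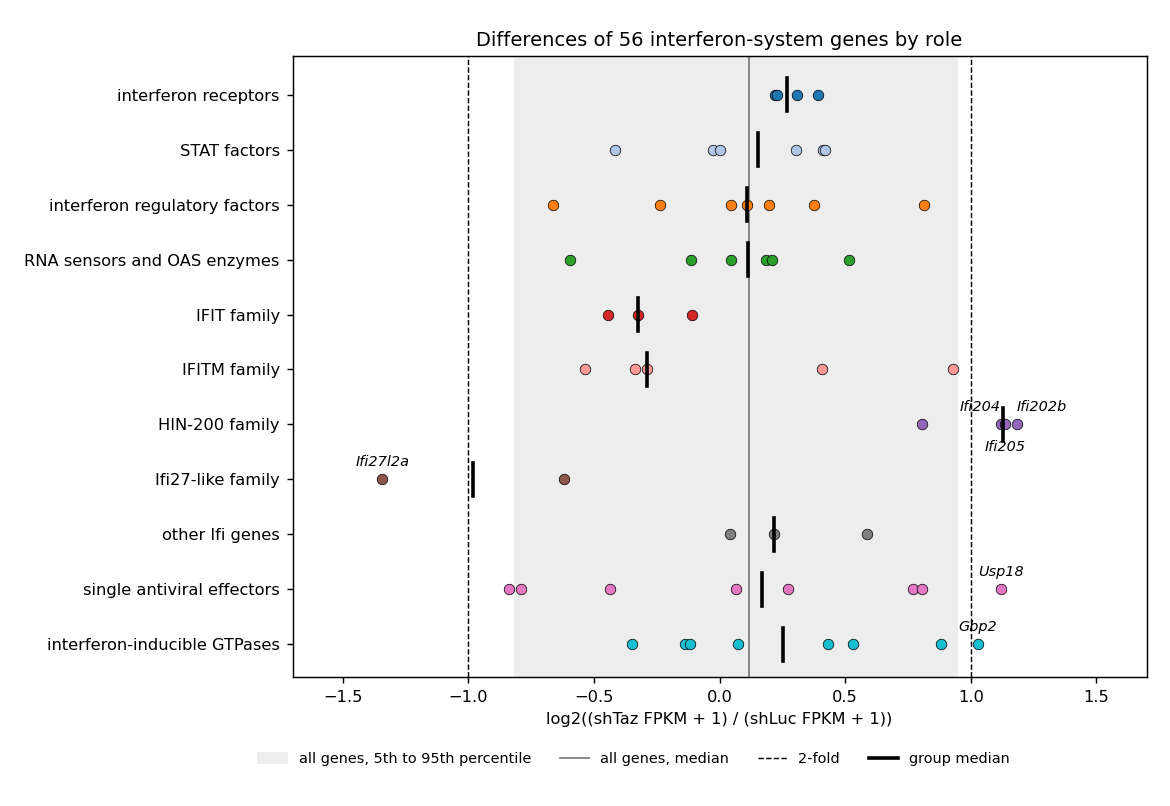
Difference between the shTaz and shLuc columns for the 56 members averaging 1 FPKM or more, on a log2 scale with 1 FPKM added to each value, by role. Each point is a gene, the black bars are group medians, the grey band spans the 5th to the 95th percentile of all genes (-0.81 to 0.94) and the dashed lines mark 2-fold; the HIN-200 genes Ifi202b, Ifi205 and Ifi204 lie furthest to the right and Ifi27l2a furthest to the left.

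Promoter sequence is shown for 3 of the genes past 2-fold and for Isg15, whose window carries several ISRE cores; Isg15 was added after its values were seen. The windows run from 250 bases before to 50 bases after the annotated start of the gene, are 300 bases long and come from RefSeq (GRCm38.p6), where 52 of the 71 members had an entry. The ISRE core searched was GAAA, any 2 bases, GAAA, and the GAS core was TTC, any 3 bases, GAA, each on both strands; ISRE cores could overlap one another. Capitals mark the cores. The Ifi202b window is chr1:173982795-173983094 (minus strand), with a GAS core 148 bases before the start and no ISRE core. The Ifi205 window is chr1:174031706-174032005 (minus strand), with ISRE cores 134 bases before and 24 bases after the start. The Gbp2 window is chr3:142620413-142620712 (plus strand), with an ISRE core 59 bases before the start. The Isg15 window is chr4:156200769-156201068 (minus strand), with 3 overlapping ISRE cores that begin 78, 72 and 66 bases before the start. Ifi204, Usp18 and Ifi27l2a had no entry.
Ifi202b: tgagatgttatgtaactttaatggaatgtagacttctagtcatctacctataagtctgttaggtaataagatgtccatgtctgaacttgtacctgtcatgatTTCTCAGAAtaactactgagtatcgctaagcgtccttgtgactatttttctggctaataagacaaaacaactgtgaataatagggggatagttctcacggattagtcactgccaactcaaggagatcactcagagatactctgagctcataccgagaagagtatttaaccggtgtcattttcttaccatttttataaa
Ifi205: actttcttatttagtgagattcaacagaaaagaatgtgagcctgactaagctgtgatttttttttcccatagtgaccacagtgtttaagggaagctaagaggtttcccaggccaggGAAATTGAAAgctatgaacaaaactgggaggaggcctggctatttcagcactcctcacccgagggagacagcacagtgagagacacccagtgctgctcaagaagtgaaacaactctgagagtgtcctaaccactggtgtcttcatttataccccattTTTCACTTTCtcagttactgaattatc
Gbp2: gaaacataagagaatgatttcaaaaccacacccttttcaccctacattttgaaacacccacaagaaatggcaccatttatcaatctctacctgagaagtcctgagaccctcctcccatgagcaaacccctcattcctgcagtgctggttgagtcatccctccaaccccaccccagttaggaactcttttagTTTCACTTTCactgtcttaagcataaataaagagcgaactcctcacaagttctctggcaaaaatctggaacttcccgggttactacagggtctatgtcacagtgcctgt
Isg15: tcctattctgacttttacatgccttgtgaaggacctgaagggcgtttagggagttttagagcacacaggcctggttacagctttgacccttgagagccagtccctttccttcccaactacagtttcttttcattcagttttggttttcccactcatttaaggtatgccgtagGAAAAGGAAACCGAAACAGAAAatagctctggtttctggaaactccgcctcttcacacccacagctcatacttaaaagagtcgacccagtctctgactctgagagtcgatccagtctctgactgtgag

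An ISRE core stood in the windows of 23 of 52 members (44.2%), against 3.09% of the 10794 genes of the deposited table that had a window. A GAS core stood in 17 of the 52 (32.7%), against 6.96% of the same genes. Both sets of letters are thus more frequent in the windows of the members than in those of all genes. Among members averaging 1 FPKM or more, the 18 with an ISRE core had a median difference of 0.03, with 9 higher and 9 lower in shTaz, and the 27 without one had a median of 0.21, with 20 higher and 7 lower. Over all 11650 genes at this level, 6792 were higher and 4858 lower in shTaz. A match is a description of the letters and not evidence of a bound site.

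The receptors were all at moderate levels and all slightly higher in the shTaz column. Ifngr1 and Ifngr2 encode the chains of the interferon gamma receptor, and Ifnar1 and Ifnar2 those of the type I interferon receptor. Ifngr2 was at 31.0 FPKM in shTaz and 24.8 FPKM in shLuc, and Ifngr1 at 28.8 FPKM in shTaz and 24.4 FPKM in shLuc. Ifnar2 was at 27.7 FPKM in shTaz and 23.6 FPKM in shLuc, and Ifnar1 at 10.03 FPKM in shTaz and 7.41 FPKM in shLuc. Their differences lay between 0.22 and 0.39, all above the all-gene median and none near 2-fold.

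The kinases that sit on these receptors were in the wider list of pathway genes. Jak1 was at 11.4 FPKM in shTaz and 7.88 FPKM in shLuc, Jak2 at 3.85 FPKM in shTaz and 2.08 FPKM in shLuc, and Tyk2 at 6.80 FPKM in shTaz and 5.12 FPKM in shLuc. Each was higher in shTaz by less than 2-fold.

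The STAT factors, which carry the receptor signal to the nucleus, did not share a direction. Stat3, the factor of interleukin-6-type cytokines, was the most abundant at 25.7 FPKM in shTaz and 18.9 FPKM in shLuc (difference 0.42). Stat6, the factor of interleukin-4, was at 21.3 FPKM in shTaz and 17.0 FPKM in shLuc (0.30). Both were higher in shTaz by less than 2-fold. Stat2, a factor of the type I interferon response, was on the other side of 0, at 6.37 FPKM in shTaz and 8.85 FPKM in shLuc (-0.42). The closely related Stat5a and Stat5b, which act behind growth hormone and cytokine receptors, were level between the columns as deposited, with Stat5a at 6.39 FPKM in shTaz and 6.38 FPKM in shLuc and Stat5b at 4.35 FPKM in shTaz and 4.44 FPKM in shLuc; with the GC and length trends described below removed, Stat5a stood at 0.29 and Stat5b at -0.01. Stat4, which acts in lymphocytes, was under 1 FPKM in both columns.

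The interferon regulatory factors included the member with the largest difference among the transcription factors. Irf8, a factor that macrophages and dendritic cells need for their development, was at 25.8 FPKM in shTaz and 14.2 FPKM in shLuc (0.82). Irf7, the factor that amplifies type I interferon production and is itself induced by interferon, was at 11.4 FPKM in shTaz and 18.6 FPKM in shLuc (-0.66). Irf8 and Irf7 therefore stood apart in opposite directions, neither at 2-fold. Irf2, a factor that competes with Irf1, was at 19.6 FPKM in shTaz and 14.9 FPKM in shLuc (0.37), whereas Irf1, the interferon gamma-induced activator, was at 15.6 FPKM in shTaz and 18.5 FPKM in shLuc (-0.24). With the GC and length trends removed this contrast was smaller, with Irf2 at 0.13 and Irf1 at -0.085, against an all-gene median of 0.11. Irf9, a DNA-binding partner of STAT proteins, was at 6.69 FPKM in shTaz and 5.71 FPKM in shLuc (0.20). Irf5, at 23.7 FPKM in shTaz and 22.9 FPKM in shLuc, and Irf3, the factor that starts interferon transcription after sensing, at 19.8 FPKM in shTaz and 18.3 FPKM in shLuc, were nearly level as deposited and stood at 0.32 and 0.44 with those trends removed. Irf4 was under 1 FPKM in both columns.

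**Figure D2:**
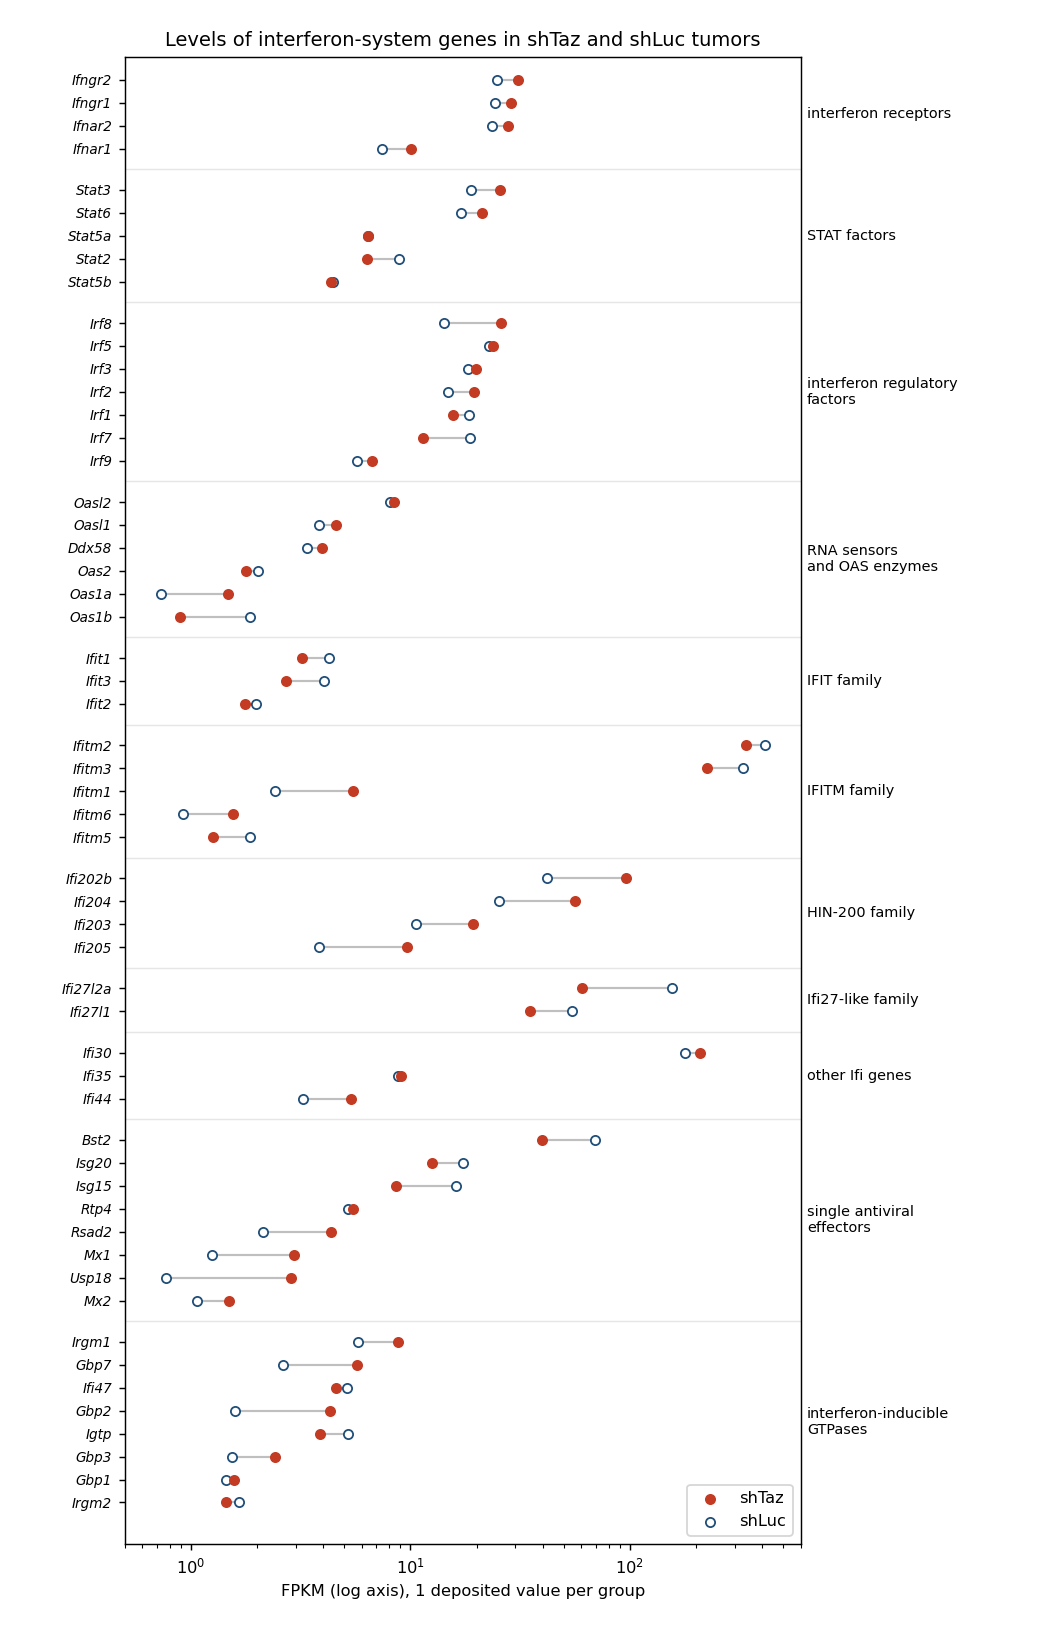
Deposited FPKM (log axis) of 55 members averaging 1 FPKM or more, ordered by role and, within a role, by shTaz level. Filled points are shTaz, open points shLuc, with 1 value per group; Ifitm2, Ifitm3 and Ifi30 are the most abundant, and the widest gaps are those of Usp18, Gbp2, Ifi205 and Ifi27l2a.

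The RNA sensors and OAS enzymes were expressed at low levels in both columns. Oasl2, a member of the oligoadenylate synthetase-like family, led the group at 8.37 FPKM in shTaz and 8.09 FPKM in shLuc (0.04). Ddx58, which encodes the cytosolic RNA sensor RIG-I, was at 3.97 FPKM in shTaz and 3.37 FPKM in shLuc (0.18, or -0.05 with the trends removed). The 2 Oas1 genes averaging 1 FPKM or more pointed opposite ways. Oas1a, whose product makes the second messenger that activates RNase L, was at 1.48 FPKM in shTaz and 0.734 FPKM in shLuc (0.52). Oas1b was at 0.892 FPKM in shTaz and 1.86 FPKM in shLuc (-0.60). Oas1a is 97.6% identical to Oas1g over 98.7% of its transcript, so reads may have been split between them and its value is uncertain. Ifih1, which encodes the RNA sensor MDA5, was under 1 FPKM in both columns, as were Oas3, Oas1g and Oas1c.

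The IFIT genes, which encode proteins that bind viral RNA and are among the classical targets of type I interferon, were all lower in shTaz. Ifit1 was at 3.20 FPKM in shTaz and 4.26 FPKM in shLuc (-0.32), Ifit3 at 2.72 FPKM in shTaz and 4.05 FPKM in shLuc (-0.44), and Ifit2 at 1.77 FPKM in shTaz and 1.99 FPKM in shLuc (-0.11). These are small differences at low levels. After removal of the table-wide dependence on GC content and transcript length, called trend removal here, the IFIT differences lay between -0.62 and -0.51. Ifit3 is 97.8% identical to Ifit3b over 97.4% of its transcript and is uncertain for that reason.

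The IFITM genes encode membrane proteins that hinder virus entry, and 2 of them were the most abundant members of all. Ifitm2 was at 336 FPKM in shTaz and 410 FPKM in shLuc (-0.29), and Ifitm3 at 225 FPKM in shTaz and 326 FPKM in shLuc (-0.54). Ifitm1 was at 5.49 FPKM in shTaz and 2.41 FPKM in shLuc (0.93), the opposite direction. With the trends removed Ifitm1 stood at 1.19, past 2-fold. The lower level of Ifitm2 is not a stable direction: with the trends removed its difference was 0.22 and that of the family median was also 0.22, against -0.29 as deposited. Ifitm3 was still lower with the trends removed, but by less, at -0.15 against -0.54 as deposited. Ifitm1, Ifitm2 and Ifitm5 have near-identical copies elsewhere in the genome over at least 25% of the transcript and are uncertain.

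The HIN-200 genes form a cluster on chromosome 1 and encode proteins that bind DNA and regulate inflammasome and interferon signalling; several are expressed in macrophages. All 4 members were higher in shTaz. Ifi202b, whose product lacks a pyrin domain and can inhibit the AIM2 inflammasome, was at 96.4 FPKM in shTaz and 41.9 FPKM in shLuc (1.18). Ifi204, a DNA-sensing member, was at 56.5 FPKM in shTaz and 25.4 FPKM in shLuc (1.12). Ifi205 was at 9.61 FPKM in shTaz and 3.83 FPKM in shLuc (1.14), and Ifi203 at 19.3 FPKM in shTaz and 10.6 FPKM in shLuc (0.81). Together they summed to 182 FPKM in shTaz and 81.8 FPKM in shLuc. The genes lie on the minus strand of chromosome 1 in mm10, Ifi204 at 173747293 to 173766943, Ifi203 at 173920407 to 173942672, Ifi202b at 173962568 to 173982744 and Ifi205 at 174011998 to 174031810. Neighbouring HIN-200 genes that the symbol rule does not take were closer to level. Mndal was at 28.9 FPKM in shTaz and 23.4 FPKM in shLuc (0.29), and Aim2, the inflammasome DNA sensor, at 7.78 FPKM in shTaz and 5.76 FPKM in shLuc (0.38).

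The HIN-200 transcripts are among the poorest in GC of all members, between 36.1% and 40.6%, and GC-poor transcripts were higher in shTaz across the whole table. With both trends removed all 4 were still higher, at 0.82 for Ifi202b, 0.77 for Ifi204, 0.63 for Ifi205 and 0.32 for Ifi203, and none reached 2-fold. Mndal was then at -0.07 and Aim2 at 0.05. Ifi204 was also at 0.99 with median-ratio scaling, and Ifi205 at 0.96 with quantile normalization, both just under 2-fold. Ifi204 is 96.9% identical to the unlisted Ifi211 over 59.4% of its transcript and 95.7% identical to Mndal over 33.8%, so its reads may have been shared with them.

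The Ifi27-like genes, which encode small mitochondrial proteins induced by interferon, were lower in shTaz. Ifi27l2a was at 60.6 FPKM in shTaz and 155 FPKM in shLuc (-1.34), the largest negative difference of any member averaging 1 FPKM or more. Ifi27l1 was at 35.2 FPKM in shTaz and 54.6 FPKM in shLuc (-0.62). Both stayed lower with the trends removed, Ifi27l2a at -0.81, short of 2-fold, and Ifi27l1 at -0.29. Ifi27l2b was listed at 0 in shTaz and at 0.233 FPKM in shLuc.

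Of the other Ifi genes, Ifi30, which encodes the lysosomal thiol reductase GILT of antigen-presenting cells, was at 208 FPKM in shTaz and 179 FPKM in shLuc (0.22). Ifi44 was at 5.37 FPKM in shTaz and 3.24 FPKM in shLuc (0.59, or 0.14 with the trends removed). Ifi35 was nearly level as deposited, at 9.03 FPKM in shTaz and 8.75 FPKM in shLuc (0.04), and stood at 0.36 with the trends removed.

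The single antiviral effectors split by level: the 3 most abundant were lower in shTaz, and the less abundant ones were at about the same level or higher. Bst2, which encodes tetherin, a protein that holds budding virus at the cell surface, was at 39.7 FPKM in shTaz and 69.4 FPKM in shLuc (-0.79). Isg20, an exonuclease gene, was at 12.6 FPKM in shTaz and 17.4 FPKM in shLuc (-0.44), and Isg15, the ubiquitin-like modifier, at 8.56 FPKM in shTaz and 16.1 FPKM in shLuc (-0.84). Usp18, which removes ISG15 from proteins and dampens Ifnar signalling, differed in the opposite direction from its substrate. It was at 2.85 FPKM in shTaz and 0.773 FPKM in shLuc (1.12). Of the 6 genes past 2-fold, Usp18 alone remained past it with the trends removed (1.21), and it stood at 0.97 with quantile normalization. Its low level in shLuc and a 4.44% exon overlap with the unlisted Gm44148 limit its precision.

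Rsad2, which encodes viperin, was at 4.33 FPKM in shTaz and 2.13 FPKM in shLuc (0.77). Mx1, a dynamin-like GTPase gene, was at 2.94 FPKM in shTaz and 1.25 FPKM in shLuc (0.81), and its relative Mx2 at 1.49 FPKM in shTaz and 1.07 FPKM in shLuc (0.27). Rtp4 was level at 5.49 FPKM in shTaz and 5.19 FPKM in shLuc (0.07). The classical interferon targets thus stood on both sides, with Isg15, Bst2 and the IFIT genes lower and Usp18, Rsad2 and Mx1 higher in shTaz. The direction of Isg20 turned with the trends removed, to 0.10, and Bst2 then stood at -0.29 and Isg15 at -0.43. On the higher side, Rsad2 stood at 0.42 and Mx1 at 0.62 with the trends removed. Isg15 is 95.2% identical to the unlisted AC151275.1 over 63.8% of its transcript and is uncertain for that reason.

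The interferon-inducible GTPases attack the membranes around intracellular microbes, and most members were low. Of 15, 8 averaged 1 FPKM or more, with 5 higher and 3 lower in shTaz. Irgm1, a regulator of the other immunity-related GTPases, led the group at 8.74 FPKM in shTaz and 5.75 FPKM in shLuc (0.53). Gbp7 was at 5.68 FPKM in shTaz and 2.63 FPKM in shLuc (0.88), and Gbp2, a membrane-attacking GBP, at 4.30 FPKM in shTaz and 1.60 FPKM in shLuc (1.03). Gbp7 and Gbp2 had the widest gaps among the 8. Gbp2 was just short of 2-fold with median-ratio scaling (0.93), with quantile normalization (0.83) and with the trends removed (0.88). Gbp7 stood at 0.42 and Irgm1 at 0.26 with the trends removed. Of the 7 GTPase genes with such a value, 4 lay above 0 and 3 below it. Gbp3 was at 2.43 FPKM in shTaz and 1.54 FPKM in shLuc (0.43), and Gbp1 at 1.58 FPKM in shTaz and 1.45 FPKM in shLuc (0.07). The immunity-related GTPases other than Irgm1 were lower: Igtp was at 3.88 FPKM in shTaz and 5.22 FPKM in shLuc (-0.35), Ifi47 at 4.56 FPKM in shTaz and 5.12 FPKM in shLuc (-0.14), and Irgm2 at 1.44 FPKM in shTaz and 1.65 FPKM in shLuc (-0.12). Gbp4, Gbp5, Gbp6, Gbp8, Gbp9 and Gbp10 were all under 1 FPKM in both columns. Iigp1 was at 0.0627 FPKM in shTaz and 1.08 FPKM in shLuc, with a mean under 1 FPKM.

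**Figure D3:**
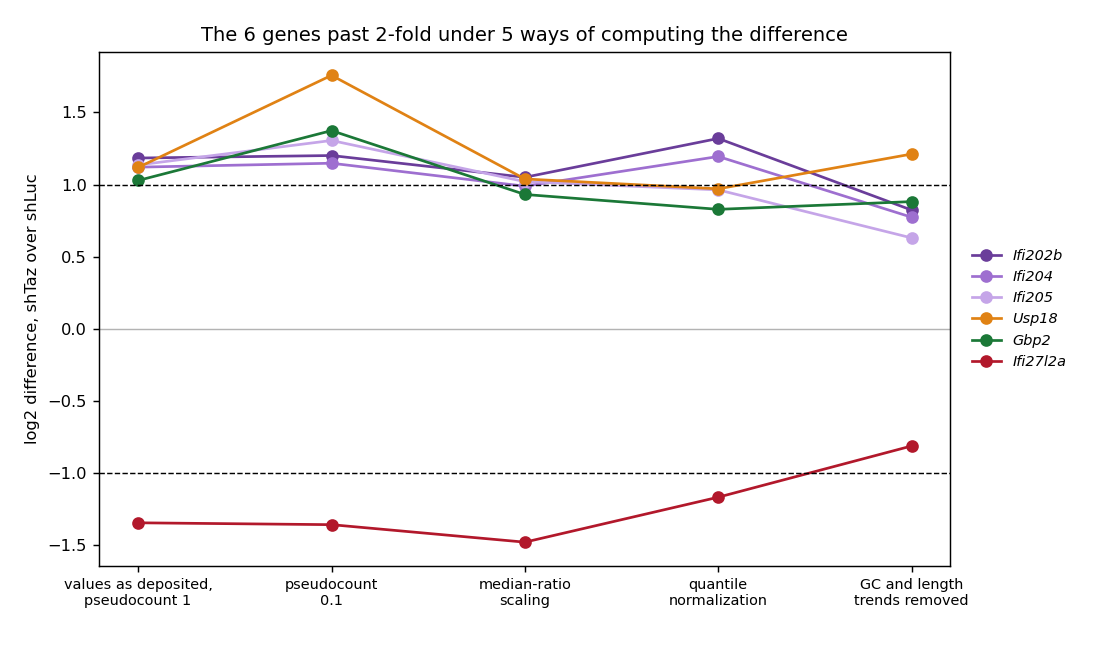
Differences of the 6 genes past 2-fold under 5 ways of computing them, as log2 values of shTaz over shLuc; lines join the values of a gene and the dashed lines mark 2-fold. All 6 keep their direction, and with the GC and length trends removed Usp18 alone stays past 2-fold.

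GC content went with the difference among the members as it did over all genes. Spearman's rho between the difference and the GC content of the longest annotated transcript was -0.54 across 55 members and -0.56 across 11055 genes, as a description across genes that share the same 2 columns. The 26 members under the median GC content of all genes (50.2%) had a median difference of 0.40, with 20 higher and 6 lower in shTaz. The 29 members at or above it had a median of 0.00, with 15 higher and 14 lower. All genes on the same sides had medians of 0.37 and -0.13. Over the 55 members, 2 were 2-fold higher and 0 were 2-fold lower with the trends removed, against 264 and 240 of 11055 genes.

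**Figure D4:**
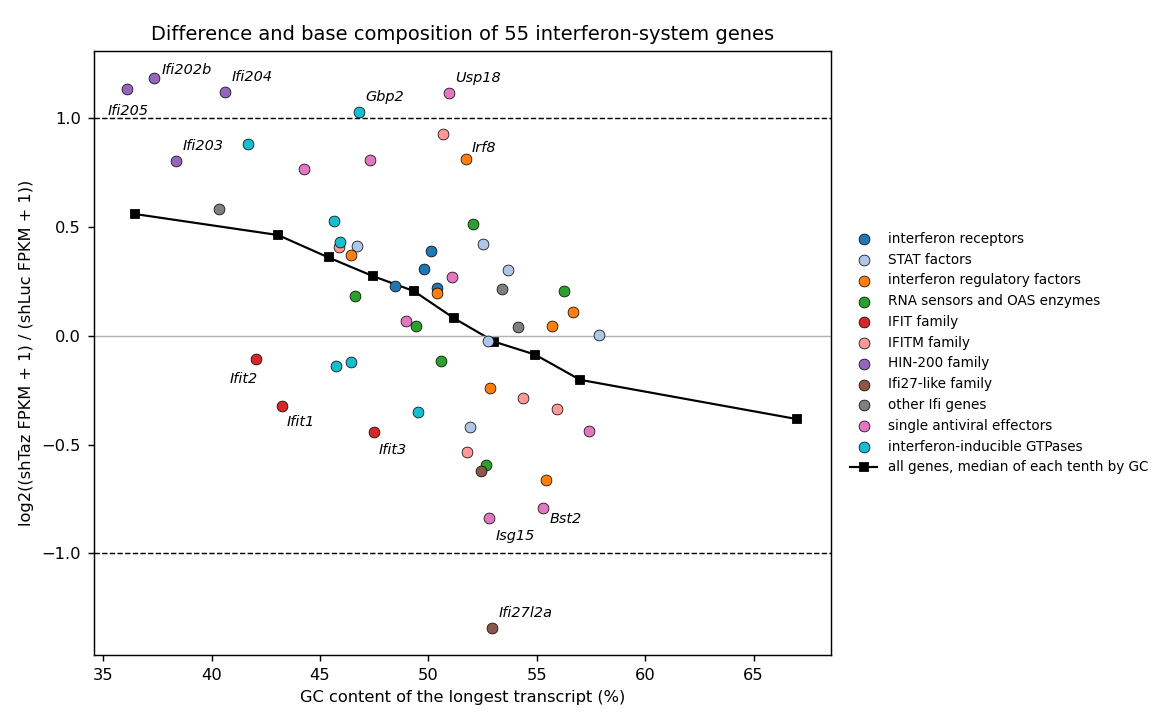
Difference (log2, 1 FPKM added) against GC content of the longest transcript for 55 members, coloured by role. Black squares are the medians of all genes in 10 bins of equal size by GC content, which run from 0.56 in the lowest bin to -0.38 in the highest; the HIN-200 genes lie at the GC-poor end and above the squares, and the IFIT genes lie below them.

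The wider pathway was described with 58 further genes of interferon induction, signalling and response, of which 54 were listed and 43 averaged 1 FPKM or more. None was 2-fold higher, against 3.96% of all genes, and 1 was 2-fold lower, against 3.25%, so that neither count stands out from the table. The pathway genes had 26 differences above 0 and 17 below it, with a median of 0.06 against 0.12 over all genes. All 11650 genes had 6792 differences above 0 and 4858 below it. The gene past 2-fold was Socs1, the feedback inhibitor of JAK kinases, at 4.74 FPKM in shTaz and 11.4 FPKM in shLuc (-1.11, or -0.72 with the trends removed). Socs1 and Usp18, both feedback inhibitors of interferon signalling, therefore stood on opposite sides. Close to the limit was Zbp1, a sensor of Z-form nucleic acid, at 2.52 FPKM in shTaz and 6.01 FPKM in shLuc (-0.99). With the trends removed Zbp1 stood at -1.01, just past 2-fold, whereas Socs1 did not reach it. Cxcl10, the chemokine gene induced by interferon gamma, was at 8.98 FPKM in shTaz and 16.3 FPKM in shLuc (-0.79, or -0.91 with the trends removed). On the higher side the widest differences as deposited were of similar size to that of Cxcl10. Parp9 was at 4.99 FPKM in shTaz and 2.53 FPKM in shLuc (0.76), and Trim21 at 4.64 FPKM in shTaz and 2.33 FPKM in shLuc (0.76). With the trends removed Parp9 stood at 0.58 and Trim21 at 0.57. Of the interferon genes, Ifnb1 was at 0.357 FPKM in shTaz and listed at 0 in shLuc, and Ifng, Ifna4 and Ifnl2 are not among the listed genes.

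Markers of other cells were read beside these values, since fewer cells of a type and less RNA per cell cannot be told apart in whole tumors. The 10 macrophage markers summed to 4977 FPKM in shTaz and 5124 FPKM in shLuc, with 5 higher and 5 lower and none at 2-fold. Csf1r was at 174 FPKM in shTaz and 132 FPKM in shLuc, Itgam at 45.7 FPKM in shTaz and 29.1 FPKM in shLuc, and C1qa at 1470 FPKM in shTaz and 1868 FPKM in shLuc. The summed macrophage level was thus close between the columns as deposited, while its members lay on both sides. With the GC and length trends removed every macrophage marker lay above 0, from 0.07 for Cd14 to 0.56 for Lyz2. The all-gene median was then 0.11. The 7 listed neutrophil markers summed to 57.5 FPKM in shTaz and 6.61 FPKM in shLuc, most of it S100a9 at 29.2 FPKM in shTaz and 0.810 FPKM in shLuc and S100a8 at 18.6 FPKM in shTaz and listed at 0 in shLuc. Of these 7 markers 4 were higher and 3 lower in shTaz, the lower ones being Cxcr2, Mmp8 and Camp, all under 1 FPKM in both columns. The 6 fibroblast markers summed to 1005 FPKM in shTaz and 1770 FPKM in shLuc, with 1 higher and 5 lower. Most of both sums was Col1a1, at 841 FPKM in shTaz and 1375 FPKM in shLuc. Of the 6 fibroblast markers 3 were 2-fold lower, Dcn (-2.38), Postn (-1.97) and Col1a2 (-1.27). With the trends removed they stood at -2.91, -2.54 and -1.13, in that order. The 5 endothelial markers summed to 74.97 FPKM in shTaz and 115 FPKM in shLuc, with 1 higher and 4 lower.

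Lymphoid markers were near 0. The T cell markers summed to 1.15 FPKM in shTaz, where Cd3e, Cd3d and Cd8a were listed at 0, and to 2.48 FPKM in shLuc. The NK cell markers summed to 0.972 FPKM in shTaz and 0.749 FPKM in shLuc, and the B cell markers to 0.296 FPKM in shTaz and 1.79 FPKM in shLuc. The plasmacytoid dendritic cell markers, of the cells that make most type I interferon, summed to 0.582 FPKM in shTaz and 0.594 FPKM in shLuc. The conventional dendritic cell markers were at a higher level and summed to 5.12 FPKM in shTaz and 5.56 FPKM in shLuc. Of these 6 markers 2 were higher and 4 lower in shTaz. Most of the shTaz sum was Batf3, at 3.84 FPKM in shTaz and 1.85 FPKM in shLuc (0.76, or 1.45 with the trends removed). Zbtb46 differed in the opposite direction (-0.51, or -0.66 with the trends removed). The part of any of these cells in the differences of the interferon genes was not tested.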

How the data were processed

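RNA from whole tumors of 4 samples, 2 per group, was sequenced. The authors deposited FPKM values in 1 column per group. Each column's heading matches a label that both samples of its group carry, and how the values of the 2 samples were combined is not stated. Per the submitters' processing notes, Trim Galore, TopHat and the mm10 build were used; versions, the FPKM program, the annotation and the strand setting are not given in the sources used here. Depth is unknown, so no counting interval is given, and with 1 value per group the planned limma test was not run.

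Differences were computed in Python 3.11.15 (pandas 2.3.3, numpy 2.4.6) with a pseudocount of 1 for genes averaging 1 FPKM or more. GC content and length came from the longest GENCODE M21 transcript and were found for 94.9% of these genes and 55 of the 56 members. Their trends were removed with lowess (statsmodels 0.14.6, span 0.3). Near-identical copies were searched with BLAST+ 2.17.0 (95% identity over 25% of the transcript). Scripts were tested on simulated data. The members and lists were chosen with earlier results of these data known, and the groups for HIN-200, Ifi27-like, IFITM and other Ifi genes were divided after values were seen. Values are given for members averaging 5 FPKM or more, those past 2-fold and the most abundant of each role; any other gene named was picked with its values in view. Alternatives were median-ratio scaling, quantile normalization, trend removal, a smaller pseudocount (0.1), a stricter filter (5 FPKM) and none. The values of a few genes are not reported here.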

Additional observations from a re-analysis of the deposited data

How the results depend on the processing

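The number of members 2-fold higher in shTaz, 5 as reported, was 8 with a pseudocount of 0.1 (adding Gbp7, Ifitm1 and Mx1), 3 among genes averaging 5 FPKM or more, 3 with median-ratio scaling, 2 with quantile normalization and 2 with the GC and length trends removed (Usp18 and Ifitm1). These are 14.3%, 9.68%, 5.36%, 3.57% and 3.64% of the members counted, in that order, against 8.55%, 2.99%, 2.66%, 2.52% and 2.39% of all genes. At 5 FPKM or more fewer genes are counted; for the other settings the cause was not tested. The number 2-fold lower, 1 as reported, was 0 with the trends removed. The median difference, 0.19 as reported, was 0.0790 with median-ratio scaling and 0.0447 with quantile normalization. Among the 33 members that average 5 FPKM or more or passed 2-fold, the sign turned for 6 with median-ratio scaling, for 4 with quantile normalization and for 3 with the trends removed (Oasl2, Ifitm2 and Isg20), and for none with the other planned settings. Below 5 FPKM, Ddx58 and Ifitm5 also turned with the trends removed. Leaving out the 7 members with a near-identical copy was a choice made after seeing the data. It left 49 members with a median of 0.20, 4 of them 2-fold higher and 1 lower. Of all genes as deposited, 3.96% were 2-fold higher and 3.25% 2-fold lower. No paired analysis was possible because the table holds 1 column per group, and leaving out replicates and the replicate block were not run for the same reason. Without replicate values, no difference can be set against the spread between tumors, and with depth unknown, values near 1 FPKM have an unknown counting error.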

Other observations

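Members under 1 FPKM on average were left out of the counts, and a few of them had wide gaps between the columns, chosen here after their values were seen. Oas1g, an oligoadenylate synthetase gene, was at 0.823 FPKM in shTaz and 0.152 FPKM in shLuc, and Gbp8 at 0.613 FPKM in shTaz and 0.0837 FPKM in shLuc. Irf4, a factor of lymphoid and dendritic cells, was at 0.560 FPKM in shTaz and 0.108 FPKM in shLuc. The widest difference at this level went the other way: Iigp1 was at 0.0627 FPKM in shTaz and 1.08 FPKM in shLuc (-0.97). Oas1g is 97.6% identical to Oas1a over 94.1% of its transcript and is uncertain for that reason. Of the 15 members at this level, 10 were higher and 5 lower in shTaz, while 49.9% of all 3774 genes at this level were higher. The counting error of values this low is unknown.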
